A study of Mus musculus with 16 samples.

Results

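The genes followed here are 10 transcription and stress response genes, namely the AP-1 subunit genes Fos, Fosb, Fosl1, Fosl2, Jun, Junb and Jund, the zinc finger factor genes Egr1 and Egr2, and Ier3. They were taken by gene symbol from the deposited count table, which held all 10 of them among 40840 genes, and all 10 passed the filter on low counts that left 20444 genes for testing. The libraries came from p53-/-; Myc hepatoblasts, a single mouse liver progenitor cell line without the tumor suppressor p53 and with overexpressed Myc, which the study uses as a culture model of hepatocellular carcinoma. All 16 libraries share this genotype. The cells received sorafenib, an inhibitor of RAF and receptor tyrosine kinases used in liver cancer, or its solvent DMSO. The groups were DMSO for 48 hours, sorafenib for 48 hours, DMSO for 7 days and sorafenib for 7 days, with 4 libraries in each, and the sorafenib dose was 8.5 µM. Each time point had its own DMSO group. The comparisons address what sorafenib did to these genes early and late, and how DMSO cells differed between the times. The labels do not say whether the time points were cultured and processed together. A difference between the times, also in the sorafenib effect, therefore cannot be told apart from a difference between such sets. Nothing in the labels says that replicates were separate cultures, so p-values measure the spread between these libraries, which may be technical.

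AP-1 is a dimer of a JUN subunit with a FOS, JUN or ATF subunit, and it binds short DNA sites in promoters and enhancers. Fos, Fosb, Jun, Junb, Egr1, Egr2 and Ier3 are early response genes: growth factors and stress switch them on within minutes through the MAP kinases, serum response factor and its ETS partners, without new protein synthesis, and their mRNAs are usually short-lived. Fosl1 and Fosl2, which encode FRA-1 and FRA-2, respond more slowly and lack the strong activation domains of FOS and FOSB. In liver, JUN and FOS rise during regeneration after hepatectomy and JUN acts in the early steps of liver tumor formation. Since sorafenib targets RAF kinases upstream of ERK, these genes also read out a pathway that the drug acts on.

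In the GENCODE M39 annotation of GRCm39, the build the files use, the FOS family genes lie at chr12:85520658-85524047 (Fos), chr7:19036621-19043976 (Fosb, minus strand), chr19:5497575-5505974 (Fosl1) and chr5:32292707-32315186 (Fosl2). The JUN family genes lie at chr4:94937271-94940459 (Jun, minus strand), chr8:85701113-85705359 (Junb, minus strand) and chr8:71151599-71153265 (Jund). Egr1 lies at chr18:34992876-34998049, Egr2 at chr10:67371305-67378018 and Ier3 at chr17:36132568-36133815. Their annotated exons cover 1139 bases in Ier3 and up to 10397 in Fosl2.

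Total counts per library ranged from 16586254 to 30828427. No pair of replicates agreed within sampling noise, with a mean chi-square per gene of 1.49 in the closest pair and of 55.0 in the most distant. Replicate 4 of DMSO at 7 days stood apart from the other 3 libraries of its group, at 41.4 to 55.0 against 1.78 to 2.79 among them, and without it the number of these 10 genes called was the same in every comparison. Replicate 2 of sorafenib at 48 hours stood at 27.0 to 30.7 from its group, and the DMSO libraries at 48 hours split into replicates 1 and 4 against 2 and 3, at 14.4 to 32.7 between these pairs and 4.19 and 4.83 within them. In the same replicate 2 of sorafenib at 48 hours, genes that follow a point near the start of chromosome 15 in genome order, through chromosome 19 and X, stood at 0.605 times the level of the genes before it, relative to the other 3 libraries of the group. In the 12 libraries of the other groups the largest such step was 0.0272 on the log2 scale. Fosl1 on chromosome 19, Egr1 on chromosome 18 and Ier3 on chromosome 17 lie in that stretch, so their values are given with and without this library. The labelled cell type was checked against marker genes. Of 11 hepatoblast and hepatocyte markers 8 passed the filter, Dlk1 and Krt19 were well expressed, and Alb and Hnf4a had at most 3 counts in every library. Of 6 stellate cell or fibroblast markers 5 passed, and their summed level ranged from 1664 to 3433 CPM (counts scaled to the library size), nearly all of it from Col1a1, while Lrat was at 0. Of 4 endothelial markers 3 passed and of 5 leukocyte markers 2 passed, the latter summing to 2.38 to 6.05 CPM, with Cdh5, Adgre1 and Clec4f at or near 0. Other markers of these lists were detected. Among the leukocyte markers Cd68 had 47 to 91 counts per library and Csf1r 3 to 95. Among the endothelial markers Kdr had 26 to 270, against at most 18 for Stab2 and 9 for Pecam1. The summed endothelial markers stood at 4.57 to 9.18 CPM with sorafenib and at 1.33 to 3.17 with DMSO. The summed hepatoblast markers ran from 476 to 562 CPM with sorafenib against 1405 to 1499.7 with DMSO at 48 hours, and from 248 to 259.9 against 708 to 804 at 7 days. The summed stellate or fibroblast markers ran from 3061 to 3433 with sorafenib against 1763 to 1918 with DMSO at 48 hours, and from 2095 to 2158 against 1664 to 1779 at 7 days. That sum follows Col1a1. Of the 5 tested genes of the list 2 were higher and 2 lower at 48 hours, with a median log2 fold change of -0.30, and 2 were higher and 3 lower at 7 days, with a median of -0.61. Of the 8 tested hepatoblast markers 1 was higher and 5 were lower at 48 hours, and 2 were higher and 6 lower at 7 days. These lists moved with treatment, and their part in the results below was not tested. In bulk RNA, fewer cells of a type and less RNA per cell cannot be told apart.

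The 10 genes did not move as a block. At 48 hours 6 of them were higher with sorafenib and 2 were lower, and at 7 days 6 were higher and 3 were lower. Fosl1, Fosl2, Jun, Jund and, narrowly, Junb were higher at both times, and Fos and Egr1 were lower at both times. A call means an adjusted p (Benjamini-Hochberg, edgeR quasi-likelihood test, all 16 libraries in the fit) under 0.05. Calls were common in these data: at 48 hours 54.6% of all tested genes were called, 26.9% as higher and 27.7% as lower, and at 7 days 56.8%, with 28.9% higher and 27.9% lower. The counts of 8 of 10 and 9 of 10 called are to be read against that background. The median absolute log2 fold change over all tested genes was 0.50 at both times. At 48 hours Fos, Fosl1, Fosl2, Jun, Jund, Egr1 and Ier3 exceeded it, and at 7 days Fosb, Fosl1, Fosl2, Jund, Egr1 and Egr2 did.

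**Figure D1:**
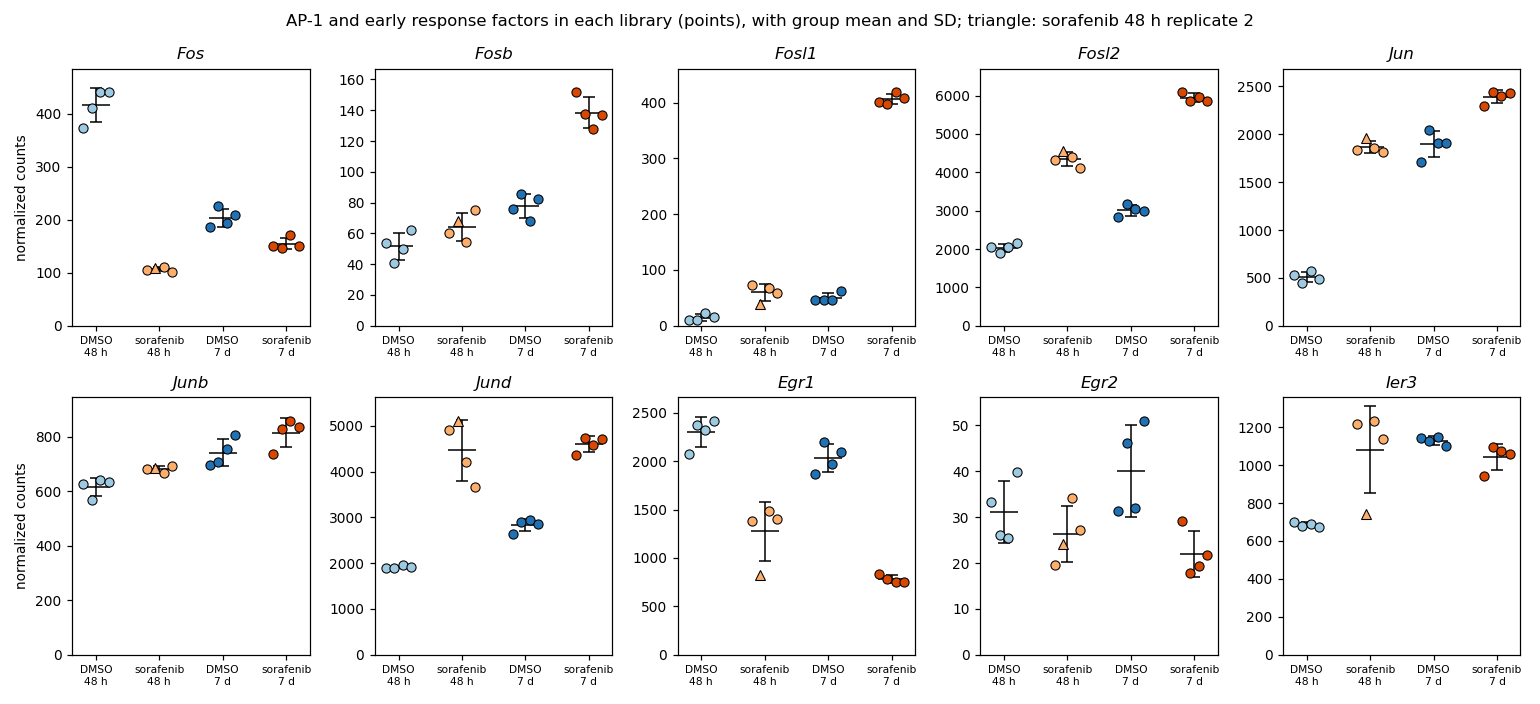
Normalized counts (y axis, linear from 0, 1 panel per gene) of the 10 genes in the 4 libraries of each group (points), with the group mean and SD as bars; a triangle marks replicate 2 of sorafenib at 48 hours. Fosl1 lies near 407 in the 4 sorafenib libraries at 7 days and below 75 in the other 12, while Fos is highest in the DMSO libraries at 48 hours.

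Fos, which encodes the founding FOS subunit, was the member that fell furthest at 48 hours. Its normalized counts, scaled by the trimmed mean of M-values (TMM) to a common library size, were 373, 410.3, 441 and 442 in the DMSO libraries and 105, 109, 110.4 and 102 in the sorafenib libraries. At 7 days they were 186, 226, 193 and 209 with DMSO and 151, 148, 171 and 151 with sorafenib. The groups did not overlap at either time, but the distance between them was far smaller at 7 days. The log2 fold change was -1.96 ± 0.08 (SE) at 48 hours (edgeR adjusted p = 5.68e-14), a 3.9-fold lower level, and -0.40 ± 0.08 at 7 days (edgeR adjusted p = 0.000291). Much of this convergence lay in the DMSO cells, in which Fos fell by 1.03 on the log2 scale from 48 hours to 7 days (edgeR adjusted p = 3.31e-10), while in sorafenib cells it rose by 0.54 (edgeR adjusted p = 9.8e-05). The effect of sorafenib therefore differed between the times by 1.57 ± 0.12 on the log2 scale (edgeR interaction term, adjusted p = 1.94e-09).

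Fosl1, which encodes FRA-1, a subunit linked to invasion and mesenchymal programs in many carcinomas, rose at both times, with the largest estimate of the 10 genes at 7 days and one within 1 SE of that of Jun at 48 hours. Its normalized counts were 9.77, 11.3, 22.5 and 15.6 with DMSO and 73, 39.3, 68.5 and 57.9 with sorafenib at 48 hours. At 7 days they were 45.4, 45.4, 46.6 and 62.1 with DMSO and 402, 398, 419 and 408 with sorafenib. Every sorafenib library lay above every DMSO library of its time, and the sorafenib libraries at 7 days formed a tight group far above the other 12. The log2 fold change was 2.04 ± 0.22 at 48 hours (edgeR adjusted p = 1.18e-07) and 3.02 ± 0.13 at 7 days (edgeR adjusted p = 4.65e-14), which are 4.12-fold and 8.13-fold. The raw counts behind the DMSO values at 48 hours were only 10 to 22 per library, so that this fold is less precise than the later one. The value of 39.3 belongs to replicate 2, in the lowered stretch. Without that library the sorafenib mean at 48 hours was 66.5 ± 7.73 (SD, n = 3) in place of 59.7 ± 15 (SD, n = 4), and the log2 fold change was 2.17 ± 0.20 (edgeR adjusted p = 3.03e-13). Fosl1 also rose over time in the DMSO cells, by 1.76 ± 0.22 (edgeR adjusted p = 1.15e-06), and more so in the sorafenib cells, by 2.74 ± 0.13 (edgeR adjusted p = 1.56e-12). The 2 sorafenib effects differed by 0.98 ± 0.29 (edgeR interaction term, adjusted p = 0.01), or by 0.85 ± 0.26 without replicate 2 (edgeR adjusted p = 0.00565), but without replicate 3 of DMSO at 48 hours, the highest of its group, the difference was 0.76 and its edgeR adjusted p was 0.058. Exons of Ccdc85b and Gm59617 on the opposite strand overlap those of Fosl1, the larger overlap covering 1163 of its 2033 exon bases. The strand setting of the counting is not given in the sources used here, so reads of Fosl1 and Ccdc85b may not be fully separated. Gm59617 is not among the counted genes, and its reads may enter the Fosl1 counts if strand was ignored. Ccdc85b, named after its values were seen, had a log2 fold change of -0.39 at 48 hours (edgeR adjusted p = 0.0055) and of 0.09 at 7 days (edgeR adjusted p = 0.474). It lies in the lowered stretch too, and without replicate 2 its value at 48 hours was -0.27 (edgeR adjusted p = 0.00058).

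Fosl2, which encodes FRA-2, was higher with sorafenib by a similar factor at both times. With DMSO it had 2048, 1904, 2045 and 2161 normalized counts, against 4326, 4544, 4396 and 4124 with sorafenib at 48 hours. The values at 7 days were 2835, 3169, 3037 and 3001 against 6095, 5857, 5959.7 and 5869.8. Replicates lay close together and the groups were far apart. Fosl2 had a log2 fold change of 1.09 ± 0.04 at 48 hours (edgeR adjusted p = 1.25e-14) and 0.98 ± 0.04 at 7 days (edgeR adjusted p = 4.65e-14). The difference between the times, -0.11 ± 0.06, did not pass the threshold (edgeR interaction term, adjusted p = 0.156). Over time Fosl2 rose by 0.56 in DMSO cells and by 0.45 in sorafenib cells (edgeR adjusted p = 8.06e-10 and 2.49e-08). The opposite-strand gene Gm72529, which was not counted, shares 425 of the 10397 exon bases of Fosl2, with the same limit.

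Fosb, which encodes the other strongly activating FOS subunit, was scarce at every time. Its normalized counts were 53.8, 40.8, 50.03 and 62.2 with DMSO and 60.3, 68, 54.3 and 75 with sorafenib at 48 hours, and these groups overlapped. At 7 days the values were 75.7, 85.7, 68.2 and 82.5 with DMSO and 152, 137, 128 and 137 with sorafenib, with a clear gap between the groups. The log2 fold change was 0.31 ± 0.14 at 48 hours, which did not pass the threshold (edgeR adjusted p = 0.081), and 0.82 ± 0.11 at 7 days (edgeR adjusted p = 3.35e-06). Leaving out replicate 4 of DMSO or replicate 3 of sorafenib at 48 hours gave 0.39 and 0.37, with edgeR adjusted p = 0.036 and 0.049. The difference between the times was 0.51 ± 0.18 (edgeR interaction term, adjusted p = 0.0347). That call was lost without replicate 4 of DMSO or replicate 3 of sorafenib at 48 hours, and without replicate 1 or 3 of DMSO or replicate 1 of sorafenib at 7 days (0.43, 0.45, 0.50, 0.45 and 0.47, edgeR adjusted p = 0.08, 0.072, 0.054, 0.073 and 0.063). It was also lost with no filter beyond 1 count (0.50, edgeR adjusted p = 0.052).

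Because FOS subunits compete for the same JUN partners, their levels were also set side by side per kilobase of exon, the scale on which genes of different length can be compared. With DMSO at 48 hours Fosl2 and Fos made up 50.6% ± 2.01 and 45.5% ± 1.83 of the summed FOS family level (SD, n = 4), and Fosb and Fosl1 2.13% ± 0.302 and 1.85% ± 0.637. With sorafenib at 48 hours Fosl2 made up 83.1% ± 1.35 and Fos 8.99% ± 0.135, and Fosl1 made up 5.84% ± 1.46, or 6.53% ± 0.581 without replicate 2 (SD, n = 3). The share of Fos in this family thus went from near that of Fosl2 to well below it. In the DMSO cells at 7 days Fosl2 and Fos lay between these states, with Fosl2 at 70.2% ± 1.29, Fos at 20.9% ± 0.814 and Fosl1, at 5.95% ± 0.923, was near its share with sorafenib at 48 hours. With sorafenib at 7 days Fosl1 became the second most abundant member at 23.3% ± 0.456, above Fos at 7.64% ± 0.443 and below Fosl2 at 66.5% ± 0.638. The summed level per kilobase went from 388 ± 22.8 normalized counts with DMSO to 503 ± 15.4 with sorafenib at 48 hours, and from 413 ± 21.5 to 859.7 ± 14.5 at 7 days. These shares use the union of annotated exons. With the canonical transcript length, chosen as a second scale after the data were seen, Fos stood at 38.5% and Fosl2 at 57.2% with DMSO at 48 hours, and the order of the FOS members was the same as with the exon union in all 4 groups.

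**Figure D2:**
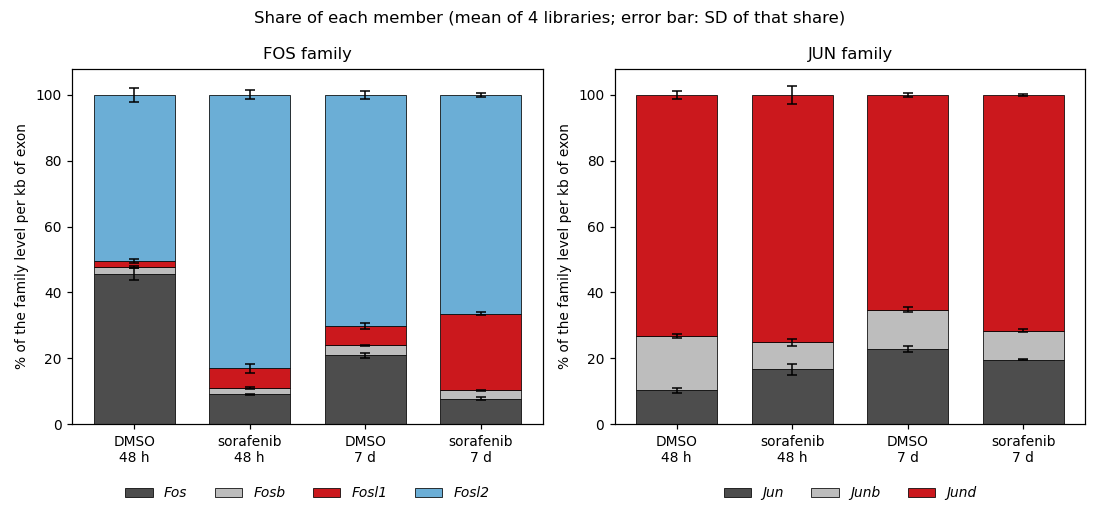
Share of each member in the summed FOS family (left) and JUN family (right) level per kilobase of exon, in percent (y axis), for the 4 groups (x axis); segments are means of 4 libraries and error bars are the SD of the segment they top. In the FOS family the Fos segment shrinks from 45.5% to 8.99% with sorafenib at 48 hours and the Fosl1 segment reaches 23.3% with sorafenib at 7 days, while Jund stays the largest JUN family segment in all 4 groups.

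Jun, which encodes one of the partners of FOS proteins and is a target of JNK and of its own product, rose with sorafenib at 48 hours but also rose in the DMSO cells by 7 days. With DMSO it had 536, 447, 568 and 492 normalized counts, and 1837, 1957, 1859.7 and 1821 with sorafenib at 48 hours. The values at 7 days were 1716, 2047, 1908 and 1912 with DMSO and 2295, 2443, 2405 and 2431 with sorafenib. The DMSO libraries at 7 days thus spanned the range of the sorafenib libraries at 48 hours, and the 4 libraries that stand apart are the DMSO ones at 48 hours. Jun had a log2 fold change of 1.87 ± 0.06 at 48 hours (edgeR adjusted p = 1.36e-15) and 0.34 ± 0.06 at 7 days (edgeR adjusted p = 3.43e-05), a difference of -1.54 ± 0.08 (edgeR interaction term, adjusted p = 1.66e-11). From 48 hours to 7 days Jun rose by 1.90 ± 0.06 in DMSO cells and by 0.36 ± 0.06 in sorafenib cells (edgeR adjusted p = 6.02e-15 and 3.77e-05). The opposite-strand gene Junos shares 528 bases of exon with Jun. It had 30 to 66 counts per library at 48 hours and 31 to 75 at 7 days, with log2 fold changes of -0.10 (edgeR adjusted p = 0.654) and 0.91 (edgeR adjusted p = 8.33e-05).

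Jund, whose product is the JUN subunit of resting cells, was higher with sorafenib at both times. Its normalized counts were 1896, 1892, 1955 and 1915 with DMSO and 4899.7, 5107, 4212 and 3654 with sorafenib at 48 hours. At 7 days they were 2636, 2895, 2943 and 2851 against 4353, 4729, 4581 and 4708. The sorafenib libraries at 48 hours were the most spread of all groups for this gene, yet the lowest, 3654, lay above the highest DMSO library of that time, 1955. Jund had a log2 fold change of 1.22 ± 0.07 at 48 hours (edgeR adjusted p = 1.41e-11) and 0.70 ± 0.07 at 7 days (edgeR adjusted p = 4.95e-08), and the difference of -0.52 ± 0.10 passed the threshold (edgeR interaction term, adjusted p = 0.000352). In DMSO cells Jund rose over time by 0.56 (edgeR adjusted p = 1.75e-06). In sorafenib cells its change was 0.04 ± 0.07 (edgeR adjusted p = 0.683), or 0.12 ± 0.05 without replicate 2 of sorafenib at 48 hours (edgeR adjusted p = 0.0327). The opposite-strand gene Gm11175 shares 877 of the 1667 exon bases of Jund. Gm11175 is not among the counted genes, and its reads may enter the Jund counts if strand was ignored.

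Junb, whose product can restrain JUN, differed little between the groups. Its normalized counts were 627, 567, 641 and 633 with DMSO and 682, 687, 669 and 694 with sorafenib at 48 hours, and 697, 708, 757 and 807 against 737, 830.0, 859 and 837 at 7 days, where the groups overlapped. The log2 fold changes of 0.15 ± 0.06 and 0.14 ± 0.06 passed the threshold narrowly (edgeR adjusted p = 0.04 and 0.0413). Neither call was stable. The one at 48 hours was lost in 13 of 24 alternative fits, among them those without any 1 of the DMSO libraries or of replicates 1, 3 and 4 of sorafenib at 48 hours (0.11 to 0.13). The one at 7 days was lost in 12 of 24, all of them fits that left out a library (0.11 to 0.15). Prdx2 overlaps Junb on the opposite strand and, with log2 fold changes of -0.64 at 48 hours and -0.48 at 7 days (edgeR adjusted p = 1.16e-11 and 9.86e-10), moved the other way. Gm65321, which was not counted, also overlaps Junb on that strand. In the JUN family per kilobase, Jund made up 73.3% ± 1.2, 75.2% ± 2.64, 65.2% ± 0.578 and 71.6% ± 0.306 in the order DMSO and sorafenib at 48 hours, then DMSO and sorafenib at 7 days (SD, n = 4). Jun went from 10.2% ± 0.796 with DMSO to 16.6% ± 1.64 with sorafenib at 48 hours and from 22.8% ± 0.802 to 19.5% ± 0.187 at 7 days, while Junb went from 16.5% ± 0.532 to 8.16% ± 1.02 and from 12% ± 0.7 to 8.9% ± 0.345. So the position of Jun and Junb within the family was exchanged with sorafenib at 48 hours and in both groups at 7 days. The summed JUN family level was 1568 ± 43.6 and 3553 ± 411 normalized counts per kilobase with DMSO and sorafenib at 48 hours, and 2605 ± 129 and 3848 ± 144 at 7 days.

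Egr1, a zinc finger factor that reads ERK activity through serum response factor, was lower with sorafenib at both times. Egr1 had normalized counts of 2074, 2374, 2327 and 2416 with DMSO and 1386, 826, 1489.5 and 1403 with sorafenib at 48 hours. By 7 days the values were 1862, 2193, 1966 and 2089.7 against 835, 782, 750.4 and 747. Groups did not overlap at either time, and the lowest library at 48 hours, 826, is replicate 2, in the lowered stretch. The log2 fold change at 48 hours was -0.84 ± 0.11 (edgeR adjusted p = 2.48e-06) with that library and -0.69 ± 0.05 without it (edgeR adjusted p = 1.9e-18). At 7 days it was -1.38 ± 0.12 (edgeR adjusted p = 2.66e-09), a 2.61-fold lower level. The 2 effects differed by -0.54 ± 0.16 (edgeR interaction term, adjusted p = 0.0117), and by -0.70 ± 0.06 without replicate 2 (edgeR adjusted p = 4.03e-13). From 48 hours to 7 days Egr1 fell by 0.72 in sorafenib cells (edgeR adjusted p = 5.68e-05), or by 0.88 without replicate 2 (edgeR adjusted p = 3.67e-20). In DMSO cells the change was -0.18 ± 0.11 (edgeR adjusted p = 0.191), which passed the threshold without replicate 2 of sorafenib at 48 hours at the same size (-0.18, edgeR adjusted p = 0.000103).

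Egr2, a relative of Egr1, was near the lower end of detection. It had 33.2, 26, 25.5 and 39.7 normalized counts with DMSO and 19.6, 24.2, 34.3 and 27.3 with sorafenib at 48 hours, and the groups overlapped. At 7 days they were 31.4, 46.3, 31.9 and 51 against 29.2, 17.9, 19.2 and 21.6, where the highest sorafenib library lay just under the lowest DMSO library. Egr2 had a log2 fold change of -0.21 ± 0.23 at 48 hours (edgeR adjusted p = 0.482) and -0.90 ± 0.22 at 7 days (edgeR adjusted p = 0.00169). The difference between the times, -0.69 ± 0.32, did not pass the threshold (edgeR interaction term, adjusted p = 0.108). These values rest on 14 to 55 raw counts per library.

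Ier3, a stress-induced gene whose product affects cell survival and ERK signaling, was higher with sorafenib at 48 hours. Its normalized counts were 702, 678, 691 and 675 with DMSO and 1215, 744, 1233 and 1137 with sorafenib. By 7 days the values were 1145, 1125, 1149 and 1100.0 with DMSO and 940.4, 1093, 1077 and 1057 with sorafenib. As for Jun, the DMSO cells at 7 days were close to the level of the sorafenib cells at 48 hours, and the value of 744 belongs to replicate 2. The log2 fold change at 48 hours was 0.67 ± 0.10 (edgeR adjusted p = 1.18e-05) and 0.80 ± 0.05 without that library (edgeR adjusted p = 8.94e-21). At 7 days it was -0.11 ± 0.10 (edgeR adjusted p = 0.337). All 4 sorafenib libraries lay below all 4 DMSO libraries there, and without replicate 2 of sorafenib at 48 hours, which enters the common estimate of the spread, the same difference of -0.11 ± 0.04 had an edgeR adjusted p = 0.0141. The 2 effects differed by -0.78 ± 0.14 (edgeR interaction term, adjusted p = 0.000166), or by -0.91 ± 0.06 without replicate 2 (edgeR adjusted p = 8.72e-18). In DMSO cells Ier3 rose over time by 0.72 ± 0.10 (edgeR adjusted p = 4.73e-06). In sorafenib cells the change was -0.06 ± 0.10 (edgeR adjusted p = 0.67), and -0.19 ± 0.04 without replicate 2 (edgeR adjusted p = 0.000259). For Ier3 the opposite-strand gene Gm66231, also not counted, shares 396 of its 1139 exon bases, with the same limit as for Jund.

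**Figure D3:**
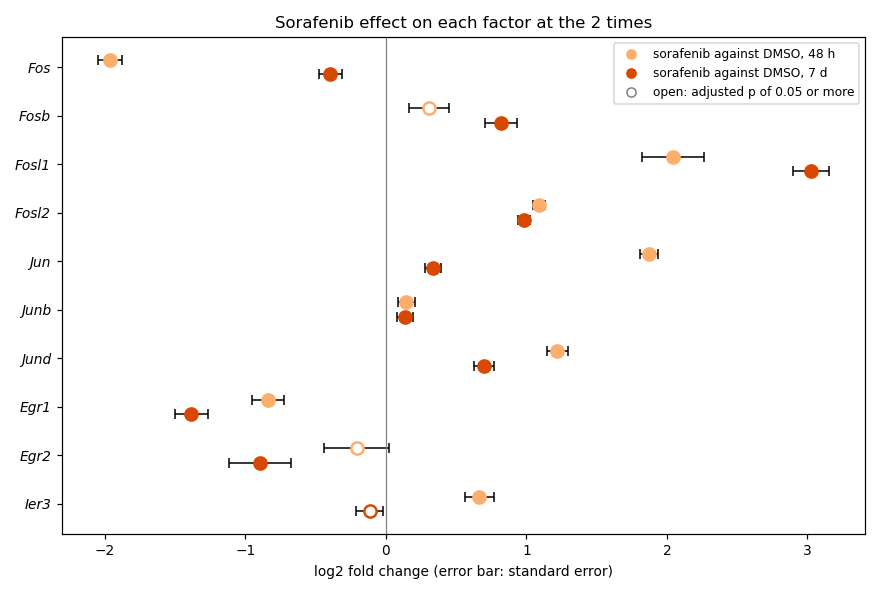
Log2 fold change of sorafenib against DMSO (x axis) for each gene (y axis) at 48 hours (light) and 7 days (dark), from edgeR with all 16 libraries; error bars are standard errors and open points did not pass an adjusted p of 0.05. Fosl1 has the largest positive value at 7 days (3.02) and lies beside Jun at 48 hours (2.04 and 1.87), Fos the most negative at 48 hours (-1.96) and Egr1 the most negative at 7 days (-1.38).

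Counted over the 10 genes, the sorafenib effect differed between 48 hours and 7 days for 7 of them, against 36.8% of all tested genes. Relative to 48 hours it was shifted upward for Fos, Fosb and Fosl1 and downward for Jun, Jund, Egr1 and Ier3. Over all genes 3162 interaction calls were upward and 4353 downward, and this split turned to 4125 and 3292 when libraries were scaled by their total counts alone, which placed the median of all genes at 0.12 in place of 0.02. The directions of the 7 genes were the same under both scalings. In DMSO cells 7 of the 10 genes rose from 48 hours to 7 days and 1, Fos, fell, where 49.4% of all tested genes were called, 23.9% as higher and 25.5% as lower. In sorafenib cells 6 rose and 1, Egr1, fell, where 39.7% were called, 17.5% as higher and 22.3% as lower. Without replicate 2 of sorafenib at 48 hours these counts were 7 rising and 2 falling in each. The groups at 48 hours did not overlap for 8 of the 10 genes, against 48.0% of all tested genes, and at 7 days for 9, against 56.8%. These comparisons share their groups, so the sorafenib effects and the time effects are not independent of each other.

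The order of levels per kilobase of exon shows how different the members are in abundance. It uses the union of annotated exons, and places close together depend on that length. The canonical transcript is shorter for Fosl2 (6975 against 10397 bases) and Junb (1809 against 2381), among others. On that length Fosl2 stands above Jun with sorafenib at both times and further above Fos and Jun with DMSO at 48 hours. With DMSO at 48 hours Jund stood first at 1149 ± 17.2 normalized counts per kilobase (SD, n = 4), followed by Ier3 at 603 ± 10.8, Egr1 at 511 ± 34.1 and Junb at 259 ± 14.1. Fosl2 at 196 ± 10.1, Fos at 177 ± 13.7 and Jun at 160.1 ± 16.5 formed a group whose neighbors differed by less than the sum of their SDs. Egr2 at 9.14 ± 1.98, Fosb at 8.28 ± 1.42 and Fosl1 at 7.26 ± 2.8 were lowest and did not differ beyond their spread. With sorafenib at 7 days Jund was again first at 2755 ± 104, followed by Ier3 at 915 ± 60.8, Jun at 751 ± 21.2 and Fosl2 at 572 ± 10.6. Junb was at 343 ± 22.7. Fosl1, at 200.04 ± 4.54, had passed Egr1, at 173 ± 9.05, and Fos, at 65.7 ± 4.46, while Fosb at 22.2 ± 1.6 and Egr2 at 6.46 ± 1.49 were the 2 lowest. With sorafenib at 48 hours the order was Jund (2680.2), Ier3 (950.3), Jun (586), Fosl2 (418), Junb (287), Egr1 (284), Fos (45.2), Fosl1 (29.4), Fosb (10.3) and Egr2 (7.74), all as means of 4 libraries. Without replicate 2 Egr1, at 317 ± 12.3 (SD, n = 3), stood above Junb, at 286 ± 5.22, on the exon union, but below it on the canonical length. Ier3 was at 1049 ± 45.1 and Fosl1 at 32.7 ± 3.8, and the rest of the order on the exon union was the same. With DMSO at 7 days Jund (1698), Ier3 (992), Jun (594) and Egr1 (451) were followed by Junb (312) and Fosl2 (289.6), which did not differ beyond their spread, and by Fos (86.3), Fosl1 (24.5), Fosb (12.5) and Egr2 (11.8).

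Promoter sequence was read for the members other than Egr1 to show which known control elements lie near their starts, in the 400 bases before the first base of the canonical transcript (GRCm39, GENCODE M39). The CArG box, the site of serum response factor, was searched for by its name pattern on both strands and was present in 2.22% of 21241 protein-coding genes. Among the members it was found in Fos, in Fosb and in Egr2, which had 2 copies. These stretches are shown because serum response factor is the best known switch of early response genes, with the match in capitals:
Fos CArG box: cacaggatgtCCATATTAGGacatctgcgt
Fosb CArG box: tggccgagctCCTTATATGGctaattgcgt
Egr2 distal CArG box: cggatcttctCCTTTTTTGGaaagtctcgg
Egr2 proximal CArG box: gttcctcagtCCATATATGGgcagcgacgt

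They lie at chr12:85520345-85520374 on the plus strand for Fos, chr7:19044223-19044252 on the minus strand for Fosb, and chr10:67373314-67373343 and chr10:67373617-67373646 on the plus strand for Egr2. The match begins 303, 266, 368 and 65 bases before the canonical start. The Fos and Fosb stretches lie outside all annotated transcripts. Both Egr2 stretches lie in an intron of a longer Egr2 transcript, and the distal one also in an exon of Gm66196 on the opposite strand. The 3 genes with a CArG box in this window did not share a response: Fos fell at both times, Fosb rose at 7 days and Egr2 fell at 7 days. Jun and Jund were the members with a CRE-like site (TGACNTCA, both strands), a site bound by JUN and ATF dimers that was found in 9.22% of the genes. Jun and Jund rose with sorafenib at both times, as did Fosl1 and Fosl2, which had no such site in this window. A part of the site in these changes was not tested. The CRE-like site began 45 bases before the start of Jun and 214 bases before that of Jund, and is shown with the match in capitals:
Jun CRE-like site: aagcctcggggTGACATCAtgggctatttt
Jund CRE-like site: ccccacccccaTGACGTCAacccacaatgc

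These stretches are at chr4:94940486-94940515 on the minus strand and chr8:71151374-71151403 on the plus strand. The Jun stretch overlaps an exon of Junos on the opposite strand, and the Jund stretch overlaps exons of Gm64347 on the opposite strand and of Gm64349 on the same strand. The AP-1 site TGANTCA was found within this window in 9.85% of genes and in none of the 9 searched members, and the EGR site GCGNGGGCG was found in 5.09% of genes and in Fosb and Jund. A match is a description of the sequence and does not show that a factor was bound in these cells.

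Short-lived early response mRNAs often carry AU-rich elements in the 3′ UTR. The core UAUUUAU was present in 31.0% of 19599 genes with an annotated 3′ UTR of at least 100 bases, and in 7 of the 10 members. Ier3 had 4 copies in 613 bases, Fosl2 had 3 in 4653 and Fos had 2 in 815, while Fosb, Fosl1, Jun and Jund had 1 each and Junb, Egr1 and Egr2 had none. The members that carry it moved in both directions with sorafenib at 48 hours, and a part of the element in this was not tested. Of 6 genes for proteins that bind such elements, 4 were lower and none was higher with sorafenib at each time, with a median log2 fold change of -0.36 at 48 hours and -0.39 at 7 days against -0.05 and 0.02 over all tested genes. Zfp36l1, a decay factor of the tristetraprolin family, had log2 fold changes of -1.62 ± 0.045 and -2.36 ± 0.047 (edgeR adjusted p = 7.59e-17 and 3.84e-19). Khsrp, another decay factor, had -0.60 and -0.48, Zfp36, tristetraprolin itself, had -0.48 at 48 hours, and Hnrnpd had -0.52 at 7 days, all with edgeR adjusted p below the threshold. For Khsrp, on chromosome 17, the value at 48 hours was -0.48 without replicate 2.

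Of 12 genes for dimer partners of AP-1 and related bZIP factors 10 passed the filter, Batf and Batf2 being too low. At 48 hours 5 were higher and 4 lower with sorafenib (6 and 4 without replicate 2), and at 7 days 6 were higher and 4 lower, with medians of 0.30 and 0.43. Atf3, a stress-induced partner of JUN, went from 101 ± 8.65 to 1119 ± 98.8 normalized counts at 48 hours and from 405 ± 43.7 to 1525 ± 47.3 at 7 days (SD, n = 4), log2 fold changes of 3.47 ± 0.09 and 1.91 ± 0.07 (edgeR adjusted p = 1.2e-17 and 4.12e-15). Jdp2, a JUN dimerization protein that represses AP-1 sites, had 2.77 and 1.99, and its level with sorafenib was 2126 ± 155 at 48 hours and 2173 ± 51.8 at 7 days. Maf, of the large MAF group, had -1.84 at 7 days. All 5 of these values passed the threshold (edgeR adjusted p of 4.12e-15 or lower).

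Other early response genes were also mixed. Of 29 listed, 28 passed the filter, Egr4 being too low. At 48 hours 16 were higher, 8 were lower and 4 were not called, and at 7 days 17 were higher and 7 were lower, with medians of 0.27 and 0.54. Ccn2 and Ccn1, secreted matricellular proteins and targets of YAP and serum response factor, had log2 fold changes of 5.97 ± 0.08 and 2.78 ± 0.08 at 48 hours, and Ccn2 had 2.60 ± 0.06 at 7 days. Klf4, a Krüppel-like factor of epithelial differentiation, had 4.43 ± 0.08 and 3.74 ± 0.07, and Klf2 had 2.62 ± 0.09 at 7 days. In all 6 of these values the edgeR adjusted p was 4e-15 or lower.

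Among 9 regulators of early response transcription, 5 were higher and 2 lower at 48 hours, and 3 were higher and 3 lower at 7 days, with medians of 0.17 and -0.00. Elk3, an ETS partner of serum response factor, had log2 fold changes of 1.78 ± 0.06 and 2.27 ± 0.06 (edgeR adjusted p = 4.39e-15 and 7.86e-17). Nab2, a corepressor of EGR factors that EGR1 itself induces, fell by 0.57 at 48 hours and by 1.43 at 7 days (edgeR adjusted p = 1.26e-10 and 6.65e-17), the same direction as Egr1. Mrtfa, a coactivator of serum response factor, had 0.57 and 0.76 (edgeR adjusted p = 1.16e-05 and 1.67e-07), and 0.69 at 48 hours without replicate 2, since it lies on chromosome 15.

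In the MAP kinase cascade all 20 genes passed the filter. At 48 hours 8 were higher and 5 lower (10 and 5 without replicate 2), and at 7 days 10 were higher and 6 lower, with medians of 0.05 and 0.14, close to those of all tested genes. Braf, a sorafenib target, was higher by 1.01 ± 0.03 at 48 hours, and Mapk9, which encodes a JNK kinase, by 0.58 ± 0.04 (edgeR adjusted p = 1.22e-15 and 3.36e-11). At 7 days Map2k6 was higher by 1.62 ± 0.06 and Map2k1, which encodes MEK1, by 0.78 ± 0.04 (edgeR adjusted p = 1.03e-14 and 4.9e-13). Mapk13 was at 2.23 to 12.5 normalized counts on average in the 4 groups, and its calls rest on few counts (log2 fold changes of -1.41 and 1.63, edgeR adjusted p = 0.04 and 0.0474), with -2.39 at 48 hours without replicate 2 (edgeR adjusted p = 0.00042).

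Genes that ERK induces and that feed back on it were mostly higher, although Fos and Egr1, which ERK also induces, were lower. Of 12 genes 8 were higher and 2 lower at 48 hours, and 8 were higher and 3 lower at 7 days, with medians of 0.36 and 0.26. Over all tested genes 26.9% were higher at 48 hours and 28.9% at 7 days. This list also rose without the drug: in DMSO cells from 48 hours to 7 days 9 of its genes were higher and 3 lower, with a median of 0.79. Dusp4, a nuclear ERK phosphatase, had log2 fold changes of 2.72 ± 0.08 and 1.64 ± 0.07, Etv4 had 1.85 ± 0.05 and 0.79 ± 0.05, Dusp6, the cytoplasmic ERK phosphatase, had 1.76 ± 0.05 at 48 hours, and Etv5 had 0.95 ± 0.11 at 7 days. All 6 passed the threshold with an edgeR adjusted p of 2.49e-07 or lower. Dusp5 and Spry2 at 48 hours and Dusp5, Spry4 and Spred1 at 7 days were the genes that were lower, named here after their values were seen.

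Known AP-1 target genes were higher more often than lower. Of 20 genes 12 were higher and 2 lower at 48 hours (13 and 3 without replicate 2), and 14 were higher and 3 lower at 7 days, with medians of 1.07 and 1.03. Over all tested genes 26.9% were higher and 27.7% lower at 48 hours, and 28.9% and 27.9% at 7 days. The list also rose without the drug. From 48 hours to 7 days in DMSO cells 12 of its genes were higher and 3 lower, with a median of 1.33. Cd44, the hyaluronan receptor, had log2 fold changes of 3.17 ± 0.05 at 48 hours and 2.27 ± 0.05 at 7 days. Ccnd1, cyclin D1, had 2.22 ± 0.03 at 7 days, and Sphk1, sphingosine kinase, had 2.56 ± 0.16. For these 4 values the edgeR adjusted p was 2.72e-11 or lower. The metalloproteinase genes of the list were nearly silent: Mmp3, Mmp9, Mmp10 and Mmp13 had group means of at most 24 normalized counts, and the call for Mmp10 at 48 hours (-2.48, edgeR adjusted p = 0.022) rests on a mean of 3.75 counts with DMSO and 0.476 with sorafenib. Whether AP-1 acts on any of these genes in these cells was not tested.

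**Figure D4:**
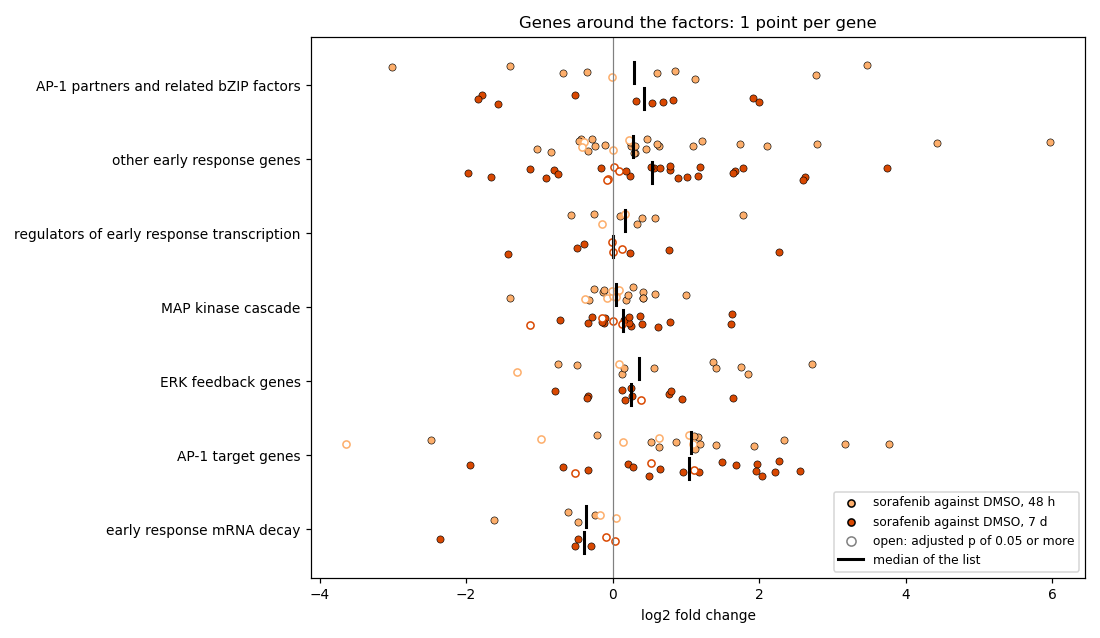
Log2 fold change of sorafenib against DMSO (x axis) for each tested gene of the 7 lists (y axis) at 48 hours (light, upper row of each list) and 7 days (dark, lower row); vertical bars are list medians and open points did not pass an adjusted p of 0.05. AP-1 target genes have the largest medians (1.07 and 1.03) and the mRNA decay genes the lowest (-0.36 and -0.39).

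For the members other than Fosl1 the gene with the most similar profile was sought among 10638 other genes averaging 100 or more normalized counts, as the smallest root mean square difference of centered log2 CPM over the 15 libraries other than replicate 2 of sorafenib at 48 hours. The closest match of all was Asap1 to Fosl2, with a distance of 0.0404. Cachd1 was closest to Fos (0.183), Coq10b to Jun (0.121), Pdlim1 to Jund (0.075), Zc3h7a to Junb (0.0668), Rbpms to Egr1 (0.0906), Tmsb4x to Ier3 (0.0673), Grk5 to Fosb (0.151) and Ube2v1 to Egr2 (0.244). The profile of Coq10b, with group means of 196, 803, 844 and 1088 in the order used above, shows the same early gap and later closeness of DMSO and sorafenib as Jun. The nearest member to Fosl2 was Jund, with 86 of the 10638 non-member genes nearer, and the nearest to Fos was Egr1, with 1540 nearer. The members are few beside 10638 other genes, so a nearer non-member was likely beforehand and does not show that members are unalike.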

How the data were processed

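RNA from p53-/-; Myc hepatoblasts was sequenced in 16 libraries after poly(A) selection with a stranded kit. Per the labels and the study's methods, the authors aligned reads to GRCm39 (mm39) with STAR 2.7.1a and deposited counts per gene made with featureCounts 2.0.6, and the submitters' notes also name DESeq2 1.40.2. The strand setting and the annotation used for counting are not given in the sources used here. Genes with a total of at least 10 counts were kept (20396 removed), libraries were scaled by TMM, and the 4 groups were fitted together in edgeR 4.0.16 (quasi-likelihood F-test, R 4.3.3), with Benjamini-Hochberg adjustment over all 20444 genes and calls at 0.05. Normalized counts are counts divided by the effective library size and multiplied by its geometric mean. DESeq2 1.42.0 and limma 3.58.1 served as alternatives, with other scalings, filters and left-out libraries. The fit was tested on simulated data. Depth bounds precision: 3 counts, the limit a count of 0 allows, equal 2.44 to 4.54 normalized counts, for counting error only.

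The members and gene lists were chosen with earlier results of these data known. Named genes were all 10 members, the 3 called genes with the largest absolute log2 fold change of each list at each time, and the nearest profile of each member. Other named genes are stated as such. Some genes that the rule names are not reported here.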

Additional observations from a re-analysis of the deposited data

Results flagged for a closer look

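The sorafenib effect differed between 7 days and 48 hours for 7 of the 10 genes by the interaction term of the edgeR fit. The difference on the log2 scale was 1.57 for Fos, 0.51 for Fosb, 0.98 for Fosl1, -1.54 for Jun, -0.52 for Jund, -0.54 for Egr1 and -0.78 for Ier3. For Jun and Ier3 the DMSO libraries at 7 days lay at the level of the sorafenib libraries at 48 hours.

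Of 40 sets of 4 libraries, 1 for each gene and group, 3 had a library that stood apart from the others by Dixon's 95% limit on the ratio of gap to range. Chance gives about 1 such set in 20. The ratio was 0.845 for Egr1 with sorafenib at 48 hours, where replicate 2 was low and lies in the lowered stretch of that library. It was 0.872 for Fos with sorafenib at 7 days, where replicate 3 was highest, and 0.928 for Fosl1 with DMSO at 7 days, where replicate 4 was highest.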

How the results depend on the processing

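Over all 10 genes and 5 comparisons, 1090 of 1150 alternative values kept direction and side of the threshold, 32 lost the call, 11 gained one and 17 changed sign, all of the latter near 0. A further demand for a 2-fold difference either way left 5 genes called at 48 hours, 2 at 7 days, 2 for the interaction, 3 for DMSO over time and 2 for sorafenib over time. Of all 20444 tested genes it left 3690, 4202, 1965, 2242 and 1727 called, in the same order. Leaving out single libraries gave 7 to 8, 8 to 10, 6 to 7, 8 to 9 and 7 to 9 genes called in the same order. With the replicate block 8, 9 and 7 genes were called in the first 3 comparisons, as without it. For the comparisons over time no blocked value can be had, since the blocks lie within a time point. Replicate numbers did not pair the samples: correlations of same-numbered deviations averaged -0.01 at 48 hours and 0.075 at 7 days, and not every sample correlated best with its own number.

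The sign changes concern the interaction of Junb, -0.01 in the reported fit, which was 0.0080 with DESeq2, 0.0076 with DESeq2 size factors, 0.086 with total counts and 0.057 with at least 10 counts in every sample, and ran from -0.037 to 0.034 without single libraries. For sorafenib over time Ier3 ran from -0.19 to 0.029 and Jund from -0.020 to 0.12 without single libraries. The causes were not tested. Raw counts were lowest for Fosl1 with DMSO at 48 hours, at 10 to 22 per library, and for Egr2, at 14 to 55.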
